A study of Mus musculus with 2 samples.

Results

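Myeloid growth factors and their receptors were followed gene by gene through the leukocytes of the mouse aorta. The group comprised 8 genes of the 32285 listed in the files, taken by symbol: the ligand genes Csf1 and Csf2 and the receptor genes Csf1r, Csf2ra, Csf2rb, Csf3r, Flt3 and Kit. All 8 were found in both libraries. The study holds 2 single-cell libraries of CD45+ cells from the aorta, 1 from mice given ZnDPA@siIRF5, which carries a small interfering RNA against the transcription factor IRF5, and 1 from controls. They are called the treated-labelled and control-labelled libraries. Strain, alleles, diet, age, the number of animals pooled and the contents of the control preparation are not stated in the labels.

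Colony stimulating factors are secreted proteins that keep blood cell lineages alive and push them to divide and mature. CSF1 acts through CSF1R, a receptor tyrosine kinase on which most macrophages depend, and KIT and FLT3 belong to the same kinase family, KIT serving mast cells and progenitors and FLT3 serving dendritic cells and lymphoid progenitors. CSF2, also known as GM-CSF, binds CSF2RA, which signals together with CSF2RB, the chain shared with interleukin-3 and interleukin-5 receptors, while CSF3R receives the granulocyte factor CSF3.

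After filtering, 11848 cells remained in the treated-labelled library, with a median of 4551.5 UMIs (unique molecular identifiers, 1 per captured transcript molecule), and 11523 in the control-labelled library, with a median of 4629. Cells were clustered without these 8 genes or the 50 pathway genes described further on, so that no level below was used to form its own cluster. Clusters were named from marker lists into 17 classes with at least 20 cells in each library. Cluster 5, led by Lyz1, Retnla and Cfd, stayed unnamed, and its cells had a median of 2423 UMIs in the treated-labelled library against 6682 in the control-labelled library. Cluster 10 was named as migratory dendritic cells by its markers Fscn1, Il4i1 and Ccl22, but Cd209a, a marker of type 2 conventional dendritic cells, was also among its leading genes, and it is called dendritic cluster 10. Ptprc, which encodes CD45, was present in every class, down to 152 CPM (counts per 1e6 UMIs of the class) in fibroblast-like cells and 118 CPM in plasma cell-like cells of the treated-labelled library. Irf5, the target of the siRNA, was at 120 CPM (114 to 127) in macrophage-like cells of the treated-labelled library and 110 CPM (103 to 117) in those of the control-labelled library. In classical monocyte-like cells it was at 154 CPM (146 to 161) and 122 CPM (112 to 133), so the targeted transcript was not lower in the library from treated mice in these classes, and every direction below rests on the labels alone. Ranges in parentheses are exact 95% intervals and hold the error of counting alone. Each group was a single library, so no replicate and no test was possible, and the treatment cannot be told apart from differences between animals, dissections and libraries.

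The stretches just upstream of the RefSeq starts of Csf2ra, a receptor gene found in most myeloid classes, and Flt3, which was highest in dendritic classes, are shown for comparison. Both are on GRCm38.p6, minus strand, Csf2ra at chr19:61228419-61228668 and Flt3 at chr5:147400490-147400739. Capitals mark matches on either strand to any of 6 motifs. The AP-1 motif was searched as the letters TGANTCA and the C/EBP motif as the letters TTGCNNAA. The Ets motif was searched as the letters GAGGAA and the GATA motif as the letters AGATAA. The E-box motif was searched as the letters CACGTG and the CRE motif as the letters TGACGTCA.
Csf2ra: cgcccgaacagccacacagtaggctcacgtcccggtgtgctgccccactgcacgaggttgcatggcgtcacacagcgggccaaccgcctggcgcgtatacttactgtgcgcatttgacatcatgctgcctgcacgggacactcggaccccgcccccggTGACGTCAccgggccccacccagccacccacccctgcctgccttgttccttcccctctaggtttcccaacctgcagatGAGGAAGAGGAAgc
Flt3: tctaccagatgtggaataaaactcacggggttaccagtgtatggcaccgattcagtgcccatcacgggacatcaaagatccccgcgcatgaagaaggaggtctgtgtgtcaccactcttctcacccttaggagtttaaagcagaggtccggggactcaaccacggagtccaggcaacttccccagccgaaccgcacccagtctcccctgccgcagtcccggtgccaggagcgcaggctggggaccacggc
The Csf2ra stretch held 1 CRE match and 2 adjoining Ets matches, and the Flt3 stretch held none. The whole 300-base window of Flt3 held 1 E-box match, in the 50 bases past the printed stretch. Over the whole 300-base windows of 27025 RefSeq promoters, an Ets match was found in 28.3%, a CRE match in 1.88% and an E-box match in 7.24%. A match describes letters and is not a measured binding site.

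The annotated GRCm38 (mm10) positions were chr3:107741048-107760469 on the minus strand for Csf1, chr11:54247271-54249667 on the minus strand for Csf2 and chr18:61100598-61132149 on the plus strand for Csf1r. Csf2ra lies at chr19:61223957-61228429 on the minus strand, Csf2rb at chr15:78325752-78353847 on the plus strand and Csf3r at chr4:126024550-126044440 on the plus strand. Flt3 lies at chr5:147330741-147400489 on the minus strand and Kit at chr5:75574916-75656722 on the plus strand. All are protein-coding genes. The 3′ ends, which these libraries count, were compared with all other annotated transcripts in windows of 90 bases over the last 500 bases. All 411 windows of Csf1r lay also in Hmgxb3, a gene on the opposite strand, so that without strand information its UMIs could not be assigned to Csf1r alone, and no source used here says whether strand was used in counting. Csf2 shared 8 of 411 windows with the antisense gene Gm12223. Csf2rb and its neighbouring close copy Csf2rb2 shared 0 of 411.

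Csf2 was found mainly in ILC2-like cells (group 2 innate lymphoid cells, which make type 2 cytokines). They held 340 of the 434 Csf2 UMIs (78.3%) of the treated-labelled library and 643 of the 845 (76.1%) of the control-labelled library. The level was 639 CPM (573 to 710) over 121 cells and 1183 CPM (1094 to 1278) over 140 cells, a log2 ratio of -0.89 (-1.08 to -0.70). The intervals of the 2 libraries did not overlap, and the level was lower in the treated-labelled library. These UMIs lay in 49 and 69 cells, and the top cell of each library held 51 of the 340 and 64 of the 643. Background for that count of 1 of 2 measured members was that 7.1% of 3139 genes measured in ILC2-like cells were at least 1.5-fold lower. None of the 2 was higher, where 6.15% of genes were.

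Within ILC2-like cells, Csf2 followed sub-clusters that had been split without it. Sub-cluster 0, with H2-Aa and Ebf1 among its leading genes, held 1122 CPM (997 to 1258) in the treated-labelled library and 1489 CPM (1372 to 1613) in the control-labelled library. Sub-cluster 2, led by T cell genes such as Cd40lg and Cd3d, held 155 and 129 CPM. Sub-cluster 0 made up 66 of 121 cells in the first library and 110 of 140 in the second, and with sub-clusters given the same weight in both libraries the log2 ratio was -0.47. At 2000 UMIs per cell, 29.1% of ILC2-like cells in the treated-labelled library and 43.6% in the control-labelled library had a Csf2 UMI, against 0 of 919 B cell-like cells, which allows a share of up to 0.326%, and 0.11% of them. Before thinning the ILC2-like shares were 40.5% (31.7 to 49.8) and 49.3% (40.7 to 57.9), with overlapping intervals. Median depths were 3972 and 3240 UMIs in ILC2-like cells and 4966 and 4508 in B cell-like cells.

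Outside ILC2-like cells much of the Csf2 signal lay in single cells. NK cell-like cells held 7 UMIs in the treated-labelled library and 45 in the control-labelled library, 3.59 and 24.5 CPM, and 28 of the 45 came from 1 cell. Macrophage-like cells held 45 and 78 UMIs, 3.83 and 8.54 CPM, and 54 of the 78 came from 1 cell. Their log2 ratio of -1.16 (-1.72 to -0.61) was -0.09 without the cell with most Csf2 UMIs in each library. In macrophage-like cells 87 of these UMIs lay in the 34 cells of sub-cluster 8, led by Saa3 and Prg4.

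Csf1, the ligand of CSF1R, was highest in fibroblast-like and neutrophil-like cells. Fibroblast-like cells held 102 CPM (78.0 to 131) in the treated-labelled library, from 98 cells, and 195 CPM (166 to 228) in the control-labelled library, from 117 cells. The log2 ratio was -0.94 (-1.39 to -0.50), and as a mean of each cell's own CPM it was -0.54. A Csf1 UMI was found in 34.7% and 35.0% of fibroblast-like cells. In the control-labelled library 28 of the 162 UMIs came from 1 cell, and in the treated-labelled library 8 of 61 did. The 10 neutrophil markers stood at 6762 and 2508 CPM in fibroblast-like cells, with 10 and 9 found, and the B cell markers at 1359 and 1542 CPM with all 6 found, and their part was not tested. These cells carry Dcn and Col3a1 and little Ptprc. In fibroblast-like cells 10.4% of 4755 genes were at least 1.5-fold lower, against 1 of 3 members, and 16.9% higher, against 0.

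Neutrophil-like cells contributed the largest share of the Csf1 UMIs, 507 of 962 (52.7%) and 238 of 659 (36.1%). Their level was 88.1 CPM (80.6 to 96.1) in the treated-labelled library and 65.1 CPM (57.1 to 73.9) in the control-labelled library. The log2 ratio of 0.44 (0.21 to 0.66) was -0.08 among cells with at least 1000 genes. Within the class the level differed by cluster. Cluster 9, led by Il23a, Hcar2 and Ccrl2, held 485 CPM (426 to 549) and 308 CPM (246 to 382). Cluster 15, led by Stfa2l1 and Cstdc4, held 77.2 and 76.2 CPM, and cluster 19, whose leading genes Ltf and Ngp encode granule proteins of immature neutrophils, held 10.7 and 15.7 CPM. Cluster 9 was thus the high cluster in both libraries. Its intervals did not overlap between the libraries, and those of cluster 15 did. cDC1-like cells (type 1 conventional dendritic cells) had 0 Csf1 UMIs in both libraries, with exact upper limits of 1.41 and 1.92 CPM. Mast cell-like cells held 79.7 CPM (48.7 to 123) from 20 UMIs and 26.8 CPM (7.29 to 68.5) from 4 UMIs, too few for a ratio, and the first overlapped the neutrophil-like level. Macrophage-like cells held 7.40 and 6.90 CPM, with a log2 ratio of 0.10 (-0.38 to 0.59).

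**Figure D1:**
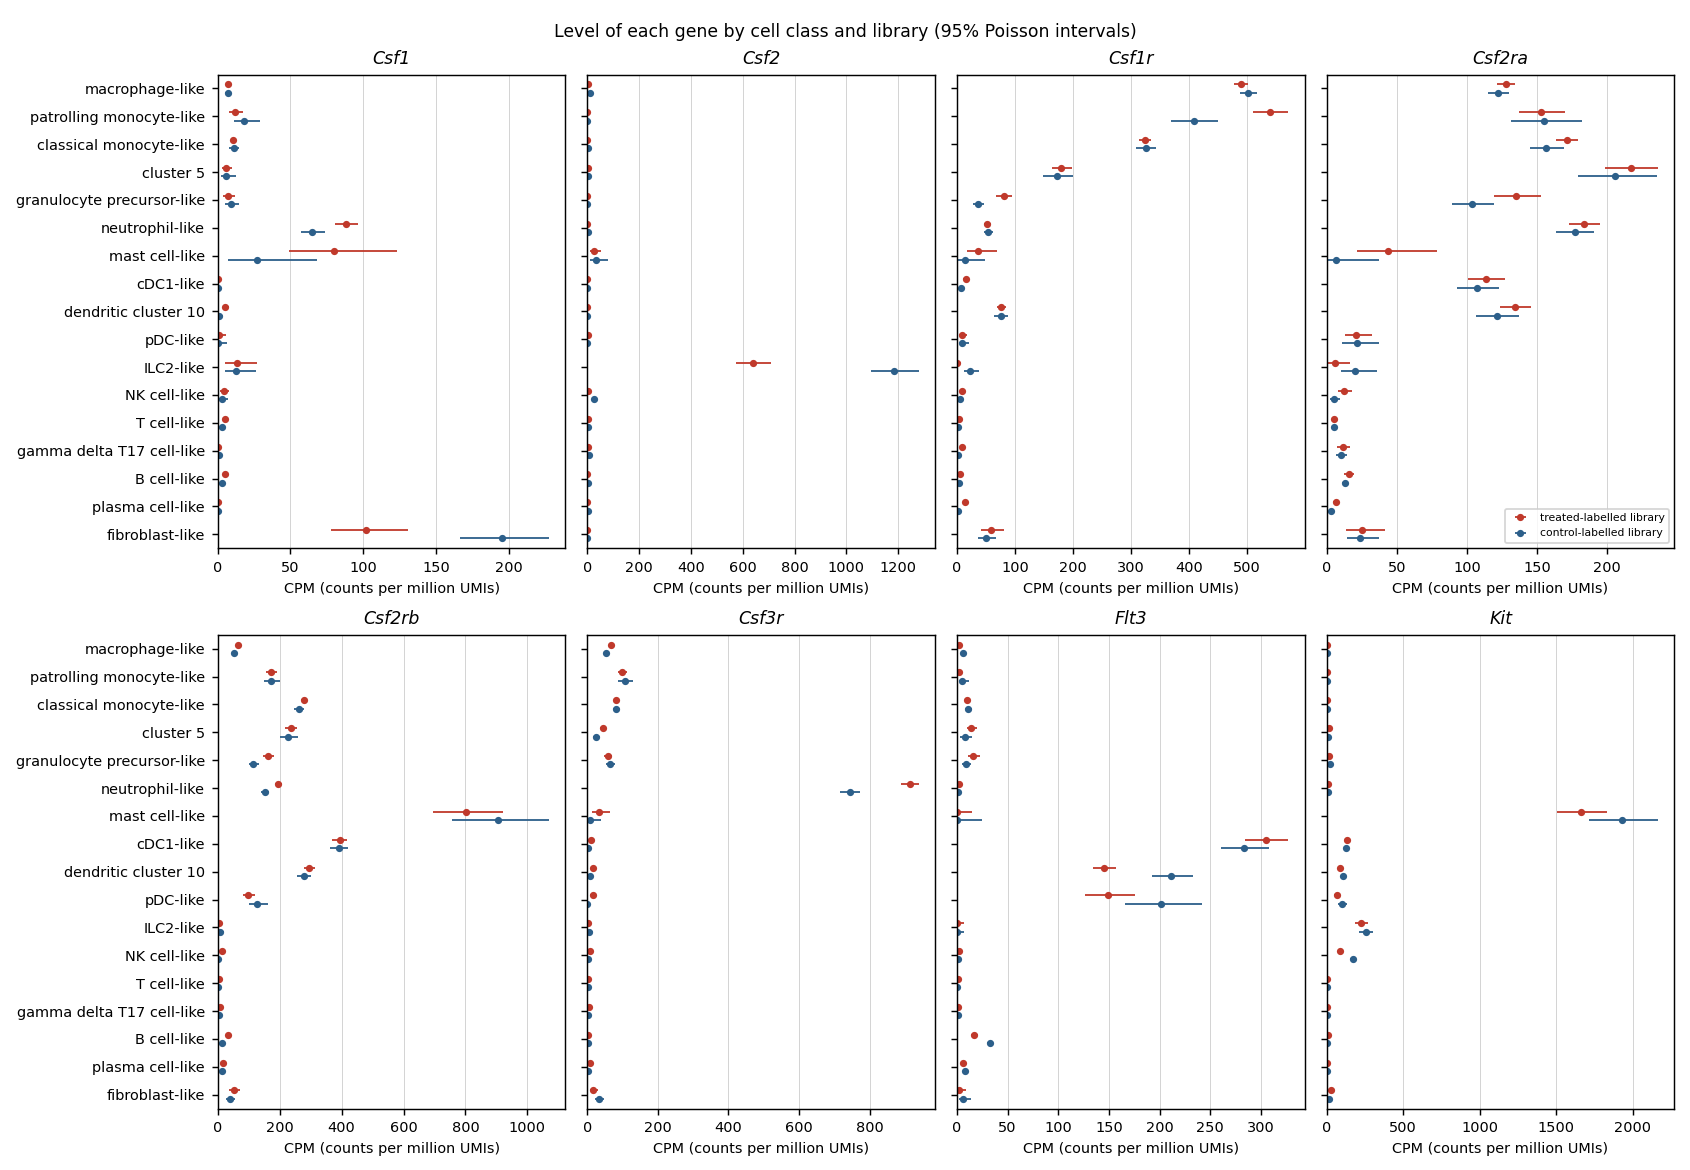
Level of each gene (x axis, CPM, linear scale from 0 and different in each panel) in 17 cell classes (y axis) for the treated-labelled library (red) and the control-labelled library (blue), with exact 95% Poisson intervals. Csf2 stands out in ILC2-like cells at 639 and 1183 CPM, Csf3r in neutrophil-like cells at 914 and 744 CPM, and Kit in mast cell-like cells at 1662 and 1928 CPM, whereas Csf2ra is found in most myeloid classes.

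Csf1r was highest in macrophage-like and monocyte-like cells. Macrophage-like cells held 489 CPM (477 to 502) in the treated-labelled library and 502 CPM (487 to 517) in the control-labelled library, a log2 ratio of -0.04 (-0.09 to 0.02). Classical monocyte-like cells held 324 and 326 CPM, a log2 ratio of -0.01 (-0.10 to 0.08). In both classes the intervals of the libraries overlapped, and a difference of 1.5-fold lay outside the interval of the ratio. Patrolling monocyte-like cells, the vessel-surveying monocytes, held 539 CPM (509 to 570) and 408 CPM (369 to 450), a log2 ratio of 0.40 (0.24 to 0.57). Their order relative to macrophage-like cells therefore differed between the libraries.

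The receptor was carried by most cells of these classes. A Csf1r UMI was found in 82.1% of macrophage-like cells in the treated-labelled library and 87.0% in the control-labelled library, and at 2000 UMIs per cell in 58.3% and 61.2%. T cell-like cells, which should lack the gene, showed 1.0% and 0.5% at 2000 UMIs per cell and 1.90% and 1.18% before thinning, at median depths of 4711.5 and 4148 UMIs against 5781 and 5825.5 in macrophage-like cells. Granulocyte precursor-like cells, led by Elane and Mpo, held 80.3 CPM (149 UMIs) and 36.6 CPM (65 UMIs), a log2 ratio of 1.14 (0.71 to 1.58), which fell to 0.30 at clustering resolution 0.5. There 13.4% of 7012 genes were at least 1.5-fold higher, against 1 of 5 members, and 4.62% lower, against 0 of 5. cDC1-like cells held 14.9 and 7.29 CPM from 39 and 14 UMIs, a log2 ratio of 1.03 (0.12 to 2.03), beside 5.27% of 7193 genes at least 1.5-fold higher, for 1 of 5 members, and 3.64% lower, for 0 of 5.

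Among 11 macrophage-like sub-clusters the highest pooled Csf1r level was in sub-cluster 1. The next was 543 CPM in sub-cluster 4, led by Hspa1b and Hspa1a, and the lowest was 266 CPM in sub-cluster 8. Sub-cluster 1, led by Cd209d with Lyve1 and Fcna, genes of resident vessel macrophages, held 706 CPM in both libraries (675 to 738 and 674 to 739). Sub-cluster 5, led by Spp1, Ctsk and Gpnmb, genes of lipid-laden macrophages, held 317 CPM (286 to 351) and 341 CPM (300 to 386). The same sub-cluster 5 had the highest pooled level of Csf2ra among sub-clusters, 207 and 180 CPM, and of Csf2rb, 121 and 127 CPM, although sub-cluster 7, with 20 and 11 cells, held 123 and 113 CPM of Csf2rb with overlapping intervals. Sub-cluster 1 held 101 and 113 CPM of Csf2ra and 56.8 and 32.7 CPM of Csf2rb. Within each gene, sub-clusters 1 and 5 did not overlap in either library, and the order was opposite for Csf1r and for the CSF2 receptor chains. Sub-clusters 2, 7 and 10 carried T cell, neutrophil and B cell genes respectively.

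**Figure D2:**
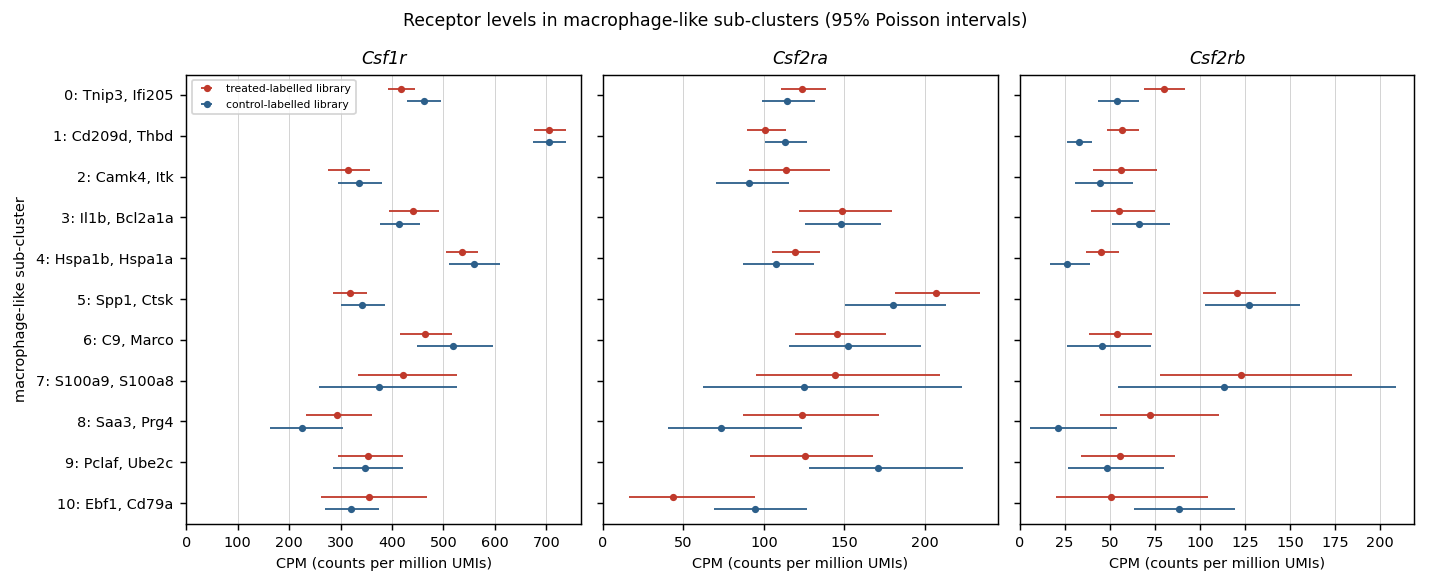
Levels of Csf1r, Csf2ra and Csf2rb (x axes, CPM) in 11 macrophage-like sub-clusters (y axis, number and 2 leading genes) for both libraries, with exact 95% Poisson intervals. Csf1r peaks in sub-cluster 1 at 706 CPM, where Csf2rb is low, and Csf2ra and Csf2rb are high in sub-cluster 5.

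Csf2ra, the ligand-binding chain for CSF2, was found in most myeloid classes. Its level was 217 CPM (198 to 236) and 206 CPM (179 to 235) in cluster 5, 183 and 177 CPM in neutrophil-like cells and 172 and 157 CPM in classical monocyte-like cells. Macrophage-like cells held 128 CPM (1501 UMIs) and 122 CPM (1118 UMIs), a log2 ratio of 0.06 (-0.05 to 0.17). Neutrophil-like and cluster 5 cells had overlapping intervals in the control-labelled library. ILC2-like cells, the main Csf2 source, held 5.64 and 20.2 CPM of Csf2ra. The ratio of Csf2ra was within 1.5-fold in every class measured except plasma cell-like cells, at 6.52 and 3.41 CPM.

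Csf2rb, the signalling chain, had a different order. Mast cell-like cells held 801 CPM (694 to 920) and 904 CPM (758 to 1069), cDC1-like cells 394 and 390 CPM, and dendritic cluster 10 held 296 and 277 CPM. Mast cell-like cells held little Csf2ra, 43.8 and 6.69 CPM, and CSF2RB also serves the interleukin-3 receptor of these cells. A group of 10 cells within cluster 5, with the basophil genes Mcpt8 and Prss34, held 83 Csf2rb UMIs, or 2669 CPM (2126 to 3308). They held 0 UMIs of Csf2ra, with an exact upper limit of 119 CPM. These cells were singled out after their values were seen, and 9 of the 10 were in the treated-labelled library.

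In several phagocyte classes Csf2rb was slightly higher in the treated-labelled library. Macrophage-like cells held 67.0 and 52.8 CPM, a log2 ratio of 0.35 (0.18 to 0.51), and the value lay between 0.31 and 0.63 under 13 alternative settings. Neutrophil-like cells held 196 and 153 CPM, a log2 ratio of 0.35 (0.21 to 0.50), and granulocyte precursor-like cells held 163 and 115 CPM, a log2 ratio of 0.50 (0.24 to 0.76). The value for granulocyte precursor-like cells ran from -0.09, a reversed direction, at clustering resolution 0.5 to 0.68. All 3 measured differences were under 1.5-fold, but the upper ends of the ranges for macrophage-like and granulocyte precursor-like cells were not. Monocyte-like cells of both kinds did not differ beyond counting error, with 279 and 262 CPM in the classical class. Both chains together were detected at 2000 UMIs per cell in 11.2% and 10.2% of classical monocyte-like cells and in 2.38% and 1.23% of macrophage-like cells, against 0.06% and 0.04% of T cell-like cells.

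Csf3r, the receptor for the granulocyte factor, marked neutrophil-like cells, which held 69.3% of its UMIs in both libraries. The level was 914 CPM (889 to 939) over 2267 cells in the treated-labelled library and 744 CPM (716 to 773) over 1227 cells in the control-labelled library. The log2 ratio was 0.30 (0.23 to 0.36), and it was 0.03 among cells with at least 1000 genes and 0.16 with clusters given the same weight in both libraries. Among the neutrophil-like clusters 9, 15 and 19 and the granulocyte precursor-like cells, Csf3r was lowest in the precursor-like cells, at 58.2 and 64.7 CPM, intermediate in cluster 19 at 361 and 330 CPM, and highest in cluster 15 at 1316 and 1140 CPM (1276 to 1357 and 1089 to 1192). Cluster 9 lay between, at 803 and 929 CPM. Monocyte-like cells held 82.4 and 82.0 CPM in the classical class and 98.6 and 106 CPM in the patrolling class. The 10 neutrophil markers stood at 959 and 1390 CPM in the classical class and at 1317 and 7534 CPM in the patrolling class. Their part in these levels was not tested.

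Macrophage-like cells held 65.8 and 54.2 CPM of Csf3r, a log2 ratio of 0.28 (0.11 to 0.45). The summed level of 10 neutrophil markers in macrophage-like cells was 712 CPM in the treated-labelled library and 347 CPM in the control-labelled library, with all 10 found in each, and its part in that difference was not tested. Cluster 5 held 43.8 and 24.1 CPM, from 105 and 25 UMIs, a log2 ratio of 0.87 (0.23 to 1.56), or 0.22 with sub-clusters given the same weight. Its neutrophil markers stood at 9938 and 1289 CPM, and their part was not tested. The background there was 10.6% of 6602 genes at least 1.5-fold higher, against 1 of 4 members, and 4.92% lower, against 0. In dendritic cluster 10 the level was 15.2 and 6.92 CPM from 66 and 14 UMIs, a log2 ratio of 1.13 (0.29 to 2.08), which was -0.0048, a reversed direction, with sub-clusters given the same weight. Sub-cluster 7, led by S100a8 and S100a9, held 33 of those UMIs in 14 and 1 cells. The neutrophil markers stood at 1363 and 506 CPM in the cluster, all 10 found in both libraries, and their part was not tested. The background was 7.51% of 8070 genes higher, against 1 of 6 members, and 4.25% lower, against 0.

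**Figure D3:**
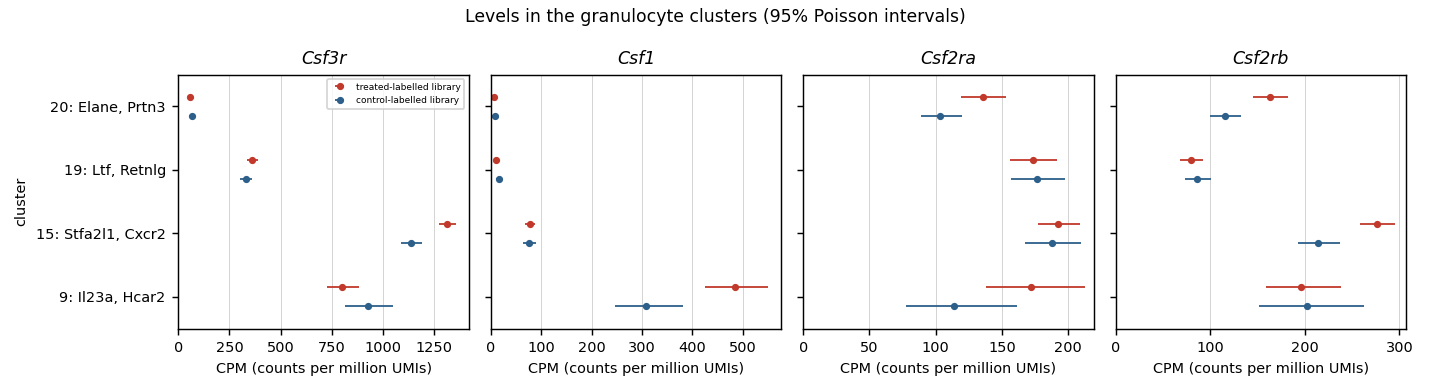
Levels of Csf3r, Csf1, Csf2ra and Csf2rb (x axes, CPM) in granulocyte precursor-like cluster 20 and neutrophil-like clusters 19, 15 and 9 (y axis, number and 2 genes among the leading ones) for both libraries, with exact 95% Poisson intervals. Csf3r reaches 1316 and 1140 CPM in cluster 15, Csf1 reaches 485 and 308 CPM in cluster 9, and the Csf2ra intervals of the libraries overlap in clusters 19, 15 and 9.

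Flt3 was highest in dendritic classes but was not confined to them. B cell-like cells held 5.21% of its 1940 UMIs in the treated-labelled library and 23.2% of 1821 in the control-labelled library. Plasma cell-like cells held 2.32% and 9.56%. cDC1-like cells held 305 CPM (284 to 327) and 283 CPM (260 to 308), a log2 ratio of 0.11 (-0.05 to 0.27), and 91.2% and 91.5% of them had a UMI at median depths of 11875.5 and 12831.5, against 0.288% and 0.143% of T cell-like cells. Plasmacytoid dendritic cell-like (pDC-like) cells held 149 and 201 CPM, a log2 ratio of -0.43 (-0.80 to -0.06). Dendritic cluster 10 held 145 and 212 CPM, a log2 ratio of -0.54 (-0.72 to -0.36). In that cluster Flt3 was highest in sub-cluster 5, led by Bcl2l14 and Fscn1, at 454 and 498 CPM, and with sub-clusters weighted alike the log2 ratio was -0.23.

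B cell-like cells held less Flt3 in the treated-labelled library, 16.8 CPM (101 UMIs) against 32.1 CPM (422 UMIs), a log2 ratio of -0.93 (-1.26 to -0.61). Cluster 26, with Rgs13 among its leading genes, held 31.8 and 50.1 CPM and made up 80 of 951 cells in the treated-labelled library and 371 of 1874 in the control-labelled library. With clusters given the same weight the log2 ratio was -0.56. In B cell-like cells 10.1% of 10455 genes were at least 1.5-fold lower, against 1 of 6 members, and 6.43% at least 1.5-fold higher, against 3 of 6. Those 3 were Csf2rb at 32.2 and 13.3 CPM (log2 ratio 1.27, 0.97 to 1.58), Kit at 7.51 and 2.97 CPM (1.34, 0.69 to 1.995) and Csf1 at 5.17 and 3.27 CPM (0.66, -0.06 to 1.36). As a mean of each cell's own CPM, Kit was at 0.45 and Csf1 at 0.31, both under 1.5-fold, and 13 of the 45 Kit UMIs of the treated-labelled library came from 1 cell.

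Kit was highest in mast cell-like cells, at 1662 CPM (1506 to 1829) over 88 cells and 1928 CPM (1711 to 2164) over 50 cells, a log2 ratio of -0.21 (-0.43 to 0.01). A UMI was found in 94.3% and 96.0% of them, at median depths of only 1708 and 1808.5 UMIs. ILC2-like cells held 224 and 254 CPM and cDC1-like cells 133 and 128 CPM, and neither differed between the libraries beyond counting error. NK cell-like cells held 86.2 CPM (73.7 to 100.3) from 168 UMIs and 173 CPM (154 to 193) from 317 UMIs, a log2 ratio of -1.003 (-1.28 to -0.73). The 7 T cell markers stood at 2112 and 2224 CPM in NK cell-like cells, against 4071 and 4160 CPM in T cell-like cells. Sub-cluster 2 of the NK cell-like cells, with Themis, Cd6 and Icos among its leading genes, made up 39 and 89 cells. The part of T cells in these levels was not tested.

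The Kit difference in NK cell-like cells lay in sub-clusters that carried the gene, with overlapping intervals in sub-cluster 4 and separate ones in sub-cluster 3. Sub-cluster 4, led by Tmem176b and Krt83 and with Rora and Gzmc, held 359 CPM (270 to 467) and 516 CPM (430 to 615). Sub-cluster 3, led by Klra8 and Klra4, held 176 CPM (141 to 216) and 315 CPM (265 to 372), while sub-cluster 5 held 0 and 1 UMIs. The log2 ratio ranged from -1.14 to -0.78 over 12 alternative settings and was -0.81 with sub-clusters weighted alike. Both measured members, Kit and Csf2, were lower in NK cell-like cells, where 4.35% of 7217 genes were at least 1.5-fold lower and 3.66% higher. In pDC-like cells Kit was at 65.9 and 99.8 CPM, but 26 of the 56 UMIs of the control-labelled library came from 1 cell, and the log2 ratio of -0.60 was 0.02 without the top cell of each library and 0.46 as a mean of each cell's own CPM. The background was 5.24% of 5246 genes lower, against 1 of 3 members, and 8.31% higher, against 0.

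Across all classes, 72 of the 136 pairs of gene and class had at least 50 UMIs over both libraries. At least 1.5-fold differences with an interval clear of a log2 ratio of 0 were found in 20 pairs, 11 higher and 9 lower in the treated-labelled library. Of these 20, 11 were under 20 CPM in both libraries. By the fold alone, 13 pairs were higher and 9 lower. The shares of all genes given for each class use the fold alone, and no share with the interval condition was computed. The same gene could count in several classes. In macrophage-like cells 0 of 7 measured members were at least 1.5-fold higher and 2 were lower, against 3.67% and 4.15% of 10975 genes. The 2 lower members were Csf2, described above, and Flt3, at 2.38 and 5.48 CPM from 28 and 50 UMIs. In classical monocyte-like cells 0 of 6 members passed in either direction, against 4.05% and 4.17% of 9362 genes, and in patrolling monocyte-like cells 0 of 4, against 5.72% and 4.94% of 6117 genes. In neutrophil-like cells only Kit of 6 members passed, lower at 5.73 and 10.1 CPM from 33 and 37 UMIs, with a reversed log2 ratio of 0.70 among cells with at least 1000 genes, beside 4.95% of 6651 genes lower and 5.41% higher. None of 2 members in mast cell-like cells passed, where 11.9% of 1433 genes were higher and 5.02% lower, nor did the 1 member measured in gamma delta T17 cell-like cells, where 4.59% of 7991 genes were higher and 2.99% lower.

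The largest ratios stood at low levels in lymphoid classes. Plasma cell-like cells held 13.3 CPM (102 UMIs) of Csf1r in the treated-labelled library and 1.92 CPM (45 UMIs) in the control-labelled library, a log2 ratio of 2.80 (2.28 to 3.33), and it was 1.16 with doublet calls kept and 1.36 in cells with at most 1 UMI of markers of other lineages. Csf3r at 6.13 and 1.41 CPM (2.12, 1.45 to 2.81), Csf2ra (0.94, 0.40 to 1.46) and Kit at 4.30 and 1.87 CPM (1.20, 0.50 to 1.88) were higher there too. Csf2ra reversed to -0.19 in cells with at most 1 UMI of markers of other lineages, and Csf3r was 0.96 with doublet calls kept. For plasma cell-like cells that limit counted T cell, neutrophil and fibroblast markers only. Macrophage, monocyte and dendritic cell markers were not counted, so the limit cannot exclude RNA from those cells. The main values made 4 of 6 members at least 1.5-fold higher, against 9.03% of 10244 genes, with 8.08% lower. The 10 neutrophil markers stood at 815 and 281 CPM in these plasma cell-like cells, all found in both libraries, and the part of RNA from other cells was not tested. T cell-like cells showed 2 of 4 members at least 1.5-fold higher, Csf1 at 4.69 and 2.61 CPM (0.85, 0.18 to 1.53) and Csf1r at 3.71 and 2.46 CPM (0.59, -0.14 to 1.32), against 2.94% of 10694 genes, with 2.6% lower.

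**Figure D4:**
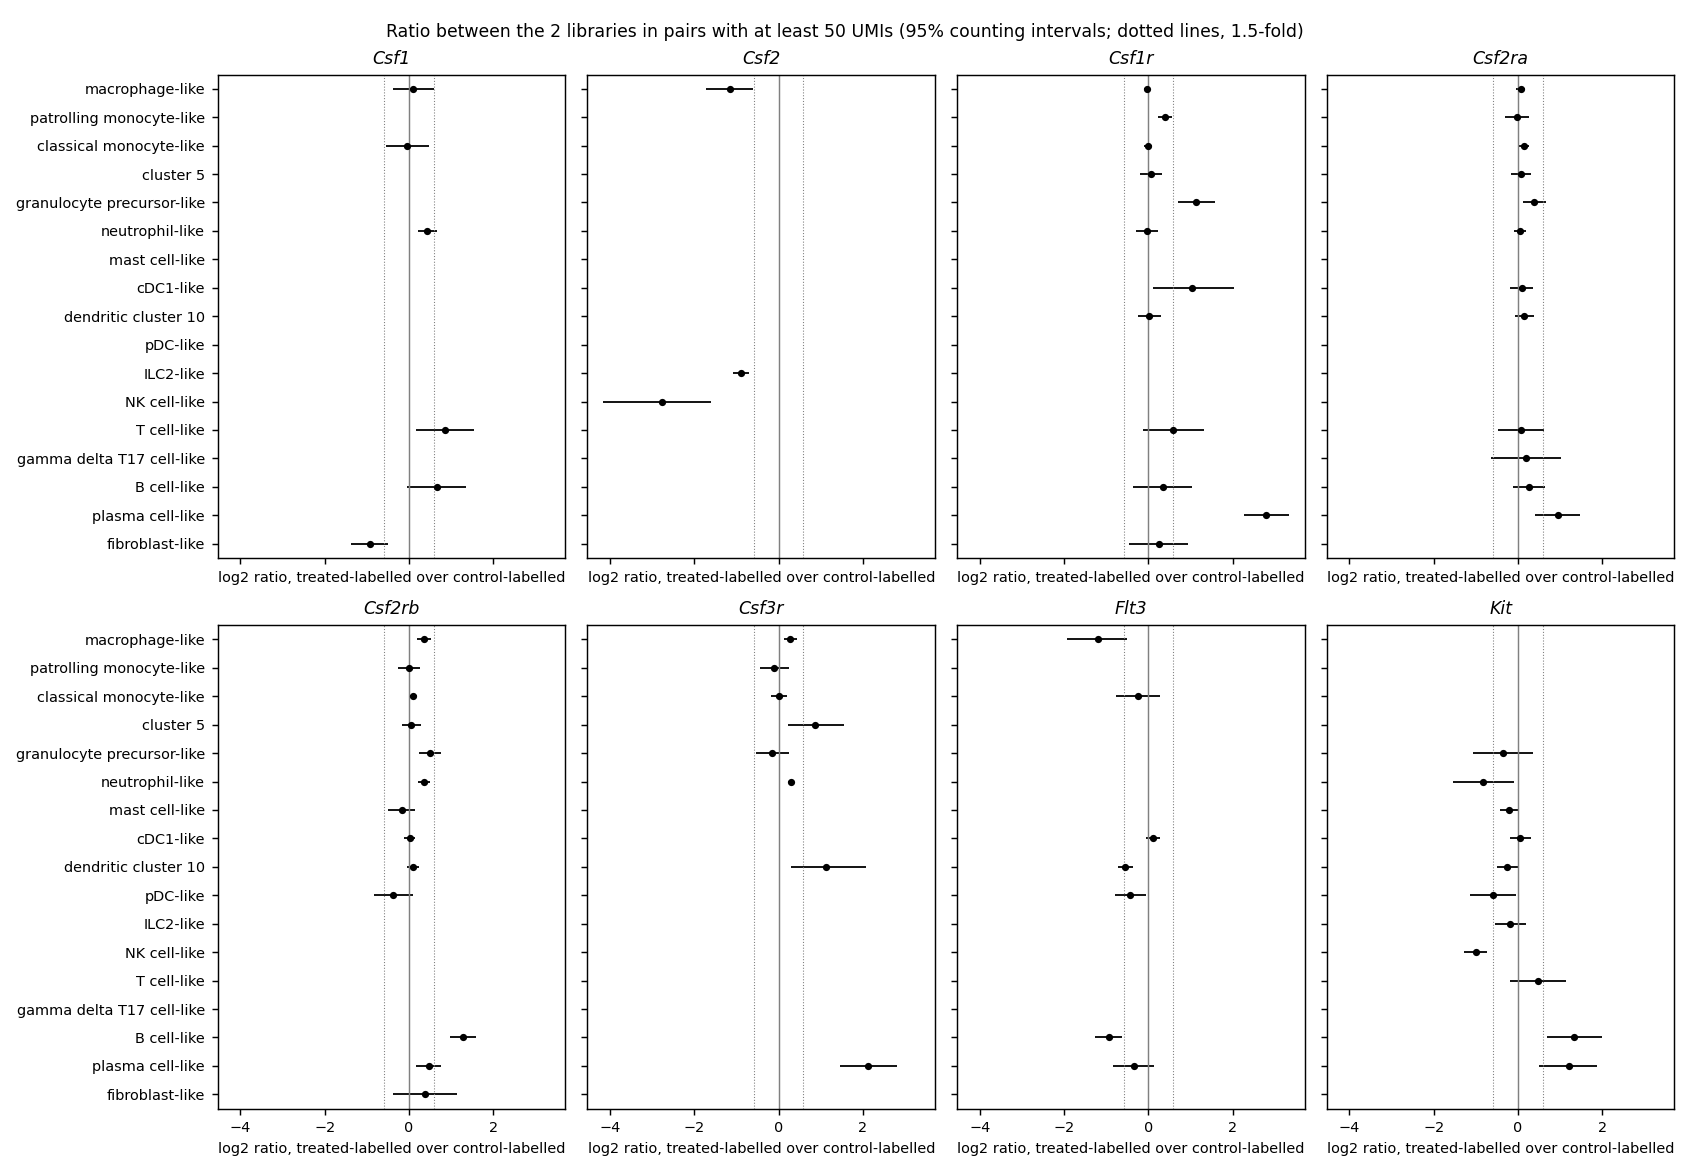
Log2 ratio of the treated-labelled over the control-labelled library (x axis) for each gene in each class (y axis) with at least 50 UMIs over both libraries, with exact 95% counting intervals; dotted lines mark 1.5-fold. Csf1r and Csf2ra lie near 0 in macrophage-like and classical monocyte-like cells, Csf2 lies at -0.89 in ILC2-like cells and Kit at -1.003 in NK cell-like cells, and Csf1r lies at 2.80 in plasma cell-like cells.

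The rest of the pathway was followed in macrophage-like cells through 6 lists of 50 genes in all. Of 6 other ligands 3 were measured, of 5 other receptors 2, of 13 adaptors, kinases and transducers 13, of 9 feedback genes 9, of 7 targets and survival genes 7 and of 10 lineage transcription factors 6. In each list 0 genes were at least 1.5-fold higher and 0 lower, beside 3.67% and 4.15% of 10975 genes measured in these cells. Counts of 0 in lists this short do not set them apart from those shares. The list medians ran from a log2 ratio of -0.09 for feedback genes to 0.04 for other ligands, beside 0.04 over all genes measured. The survival gene Bcl2a1b held 625 and 873 CPM (log2 ratio -0.48, -0.53 to -0.44). The adaptor gene Dok2, a brake on kinase signalling, held 90.8 and 64.2 CPM (0.50, 0.35 to 0.65), and Mitf held 324 and 410 CPM (-0.34, -0.40 to -0.27). The phosphatase gene Ptpn6 held 95.7 and 72.3 CPM (0.41, 0.27 to 0.55), and the cell cycle gene Ccnd1 held 56.6 and 41.8 CPM (0.44, 0.25 to 0.62).

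Other ligands of these receptors had sources of their own. Kitl, which encodes the ligand of KIT, was highest in macrophage-like cells, at 109 and 113 CPM, and did not differ beyond counting error there. Fibroblast-like cells held 55.2 and 105 CPM of Kitl, close to macrophage-like cells in the control-labelled library. Csf3 was at 41.1 and 47.1 CPM in classical monocyte-like cells and at 8.36 and 74.7 CPM in fibroblast-like cells, so the higher class differed between the libraries. Il5, whose receptor also uses CSF2RB, was highest in ILC2-like cells, at 1082 CPM (576 UMIs) and 1135 CPM (617 UMIs). Flt3l was scarce, at 35.7 and 20.2 CPM in ILC2-like cells from 19 and 11 UMIs. Csf2rb2, the close copy of Csf2rb, was highest in mast cell-like cells like Csf2rb itself, at 359 and 455 CPM.

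The genes with the most similar pattern were found by the Pearson correlation of log2(CPM + 1) over 34 points, 17 classes in each of 2 libraries, among 10208 genes. The points share libraries and the classes differ in depth, so the values are a description only. Csf1r was most like Clec4a1 (0.955), Tlr2 and Cflar, and Csf3r was most like Clec4d (0.945), Sgms2 and C5ar1. Csf2 was most like Ccl1 (0.889), Calca and Rnf128, and Csf2ra was most like Pira2 (0.949), Il1b and Lrrc25. Csf2rb was most like Csf2rb2 (0.889), Fmnl2 and Alox5ap, and Flt3 was most like Kmo (0.885), Pkib and Tnni2. Kit was most like Chn2 (0.822), Rheb and Nck2, and Csf1 had the weakest matches, Zfp503 (0.793), Atp11a and Steap4.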

How the data were processed

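The deposited matrices hold raw UMI counts by gene and barcode, per the file headers and values. Libraries were made with a 10x 3′ kit, per the labels' protocols. The submitters' processing notes name Cell Ranger 3.1.0, Seurat 4.4.0 and mm10, whereas the file headers name Cell Ranger 7.2.0; no source used here states the intron and strand settings. The libraries held 13155 barcodes with 77856529 UMIs (treated) and 12516 with 88567528 (control).

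The first filter took out 511 and 352 barcodes that had fewer than 500 genes, and 178 and 126 more exceeded 15% mitochondrial UMIs. Next went 618 and 515 barcodes called doublets by Scrublet (over all barcodes 639 and 533, 4.86% and 4.26%, where 10.5% and 10.0% were expected, so some doublets will remain). In the kept cells 37 barcode sequences occurred in both libraries. Counts scaled to 10000 UMIs per cell entered Leiden clustering (2000 variable genes, 30 components, 15 neighbours, resolution 1, 29 clusters; scanpy 1.11.5, python-igraph 0.11.9, Python 3.11.15). Sub-clusters used resolution 0.5. Clusters were named from markers found in a single list, with at least 3 detected; this scoring was set after the data were seen.

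UMIs were summed per class and library and scaled to CPM. Levels have exact Poisson, ratios conditional binomial and shares Clopper-Pearson intervals, all 95%. Ratios needed 50 UMIs over both libraries, and a count of 0 was set against a floor of 3 UMIs. The interval script was tested on simulated Poisson counts, so the test does not cover UMIs gathered in single cells. Named pathway genes are up to 4 per list with the largest ratio in macrophage-like cells, or those whose level is the point; similar genes are the 3 with the highest correlation, with at least 20 CPM somewhere. The members and lists were chosen with earlier results of these data known. Csf2rb and Csf1r sequences are not printed.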

Additional observations from a re-analysis of the deposited data

How the results depend on the processing

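The 72 ratios were recomputed under 13 alternative settings, 3 of them chosen after seeing the data (without shared barcodes, without the top cell, same sub-cluster weights). Of 805 values, 745 stayed within the main interval, 51 moved outside it and 9 changed sign where the main interval was clear of 0. Some ratios whose main interval held 0 also changed sign and are not among those 9. The limit on markers of other lineages counted T cell, B cell, neutrophil and fibroblast markers, without the list of a class's own lineage. It counted no macrophage, monocyte, dendritic or mast cell markers. In cells with at most 1 UMI of markers of other lineages the log2 ratio was -1.14 for Csf2 in ILC2-like cells, -0.10 for Csf2rb in classical monocyte-like cells, -0.14 for Csf1r in macrophage-like cells, -0.60 for Kit in mast cell-like cells and 1.66 for Kit in pDC-like cells, and in plasma cell-like cells 1.36 for Csf1r, -0.19 for Csf2ra and 2.29 for Kit. With doublet calls kept it was 0.37 for Csf3r in neutrophil-like cells, and 1.16 for Csf1r and 0.96 for Csf3r in plasma cell-like cells. With at least 1000 genes, neutrophil-like cells gave -0.083 for Csf1, 0.032 for Csf3r and 0.70 for Kit. Csf3r in neutrophil-like cells was 0.44 with at most 5% mitochondrial UMIs, 0.43 at resolution 0.5, 0.42 at resolution 2, 0.43 with members and pathway genes among the variable genes, 0.16 with the same cluster weights and 0.17 with the same sub-cluster weights. At resolution 0.5, granulocyte precursor-like cells gave 0.30 for Csf1r, -0.19 for Csf2ra and -0.0897 for Csf2rb. At resolution 2, Csf1r was -0.11 in macrophage-like cells and Kit -0.45 in mast cell-like cells. With the same cluster weights Flt3 was -0.56 in B cell-like cells. As a mean of each cell's own CPM, Kit was 0.45 in B cell-like and 0.46 in pDC-like cells, and in macrophage-like cells Csf2 was -0.36, Csf1r -0.10 and Csf2ra -0.0629. With the same sub-cluster weights Csf2 was -0.47 in ILC2-like cells, and Csf3r was -0.0048 in dendritic cluster 10 and 0.22 in cluster 5. Without the top cell Csf2 was -0.0922 in macrophage-like cells and Kit 0.0195 in pDC-like cells. The causes were not tested. All 8 members kept their highest class with other totals; Csf1 moved to neutrophil-like cells under the limit on markers of other lineages, where 11 and 22 fibroblast-like cells with 4 and 2 Csf1 UMIs were left, too few to rank, and Csf2ra to classical monocyte-like cells with doublet calls kept, which left 7 of 8 in each. In macrophage-like cells the counts of pathway genes past 1.5-fold stayed at 0 in both alternatives run. Depth limits low levels most: 11 of the 20 larger differences lay under 20 CPM in both libraries. No paired analysis was possible because each group holds 1 library.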
